A study of Mus musculus with 16 samples.

Results

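Serotonin receptors were followed in the cortex of newborn and week-old mice, in control mice and after forebrain deletion of Foxp1, a forkhead transcription factor gene. The set was the 10 rows of the deposited expression table, of 20841 genes in all, whose symbols were Htr1a, Htr1b, Htr1d, Htr1f, Htr2a, Htr4, Htr5a, Htr5b, Htr6 and Htr7. Per the labels, polyA RNA came from the right hemisphere's cortex of control mice and of mice with a conditional knockout (cKO) of Foxp1 in the forebrain, at postnatal day 0 (P0) and postnatal day 7 (P7). Each of the 4 groups (P0 control, P0 cKO, P7 control, P7 cKO) held 4 libraries, 16 in all. The sources used here do not give the Cre driver, the strain or what alleles the controls carried. The P0 libraries were made and sequenced at BGI on a BGISEQ-500 and the P7 libraries at UT Southwestern on a NextSeq 500, so that age and platform cannot be told apart.

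All 10 genes encode receptors with 7 membrane passes that act through G proteins. Htr1a, Htr1b, Htr1d, Htr1f and Htr5a couple mainly to Gi/o proteins, which lower cyclic AMP and can open GIRK potassium channels. Htr4, Htr6 and Htr7 couple to Gs, which raises cyclic AMP, and Htr2a couples to Gq, which drives phospholipase C. The main coupling of Htr5b, a gene that is active in mouse and not in human, is less settled, and it is set apart here. In the cortex these receptors are carried by projection neurons, interneurons and incoming axons, while serotonin itself arrives from neurons of the raphe nuclei in the brainstem.

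Values are CPM, the reads of a gene scaled by the authors to a common library total. Library totals recovered from the table were 17957490 to 18232943 reads at P0 and 9858296 to 15335738 reads at P7. At P0 the first principal component (46.5% of the variance) set control libraries 2 and 6, at -38.1 and -19.5, apart from the other 6 libraries, which lay from 0.443 to 17.9. Foxp1 itself averaged 326 ± 38.3 CPM in P0 control against 161 ± 21.3 CPM in P0 cKO cortex, and 444 ± 73.3 against 217 ± 38.4 CPM at P7 (SD, n = 4, exact permutation p = 0.0286 for either age, the smallest that 70 assignments allow). Markers of cortical projection neurons were high, with summed levels of 2852 to 3576 CPM in P0 control and 1109 to 1313 CPM in P7 control libraries, and 6 of 6 of them were in the table. The labels do not say that libraries came from separate animals, so p-values measure the spread between these libraries, which may be technical. In bulk tissue, fewer cells of a type and less RNA per cell cannot be told apart.

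The levels of the 10 receptors were first compared with each other, per kilobase of summed exons. These lengths leave out introns. Of 307 genes wholly under an opposite-strand gene with no shared exon, 96.7% had no read in any P0 library. Whether reads in introns entered the receptor levels was not tested. In P7 control cortex Htr1f led at 8.08 ± 0.835 CPM per kilobase (SD, n = 4) and Htr7 followed at 5.55 ± 0.441. Htr5a (3.21), Htr1b (2.71), Htr1a (2.53) and Htr2a (2.05) came next, and each overlapped its neighbour in this order. Htr4 stood at 1.4, and Htr5b (0.502), Htr1d (0.460) and Htr6 (0.211) were lowest. The 4 values did not overlap between Htr1f and Htr7, Htr7 and Htr5a, Htr2a and Htr4, Htr4 and Htr5b, or Htr1d and Htr6. In P7 cKO cortex the leading pair was the other way round. There Htr7 stood at 8.48 ± 0.131 and Htr1f at 6.24 ± 0.551 CPM per kilobase (SD, n = 4), again without overlap. Both stood above Htr5a (3.14), and the rest ran from Htr1a at 2.96 to Htr6 at 0.208.

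At birth the receptors lay close together. In P0 control cortex the means per kilobase ran from Htr1f (1.41), Htr1a (1.18), Htr6 (1.12) and Htr2a (0.902) through Htr5a (0.688), Htr7 (0.610), Htr1b (0.451), Htr5b (0.422) and Htr1d (0.328) to Htr4 (0.180), and every neighbouring pair overlapped. In P0 cKO cortex Htr1a led with 2.04 ± 0.808 CPM per kilobase (SD, n = 4), and only Htr1b and Htr1d were neighbours whose values did not overlap. These orders depend on the length used. With coding length in place of summed exons, 1 of 10 receptors kept its rank in P0 control, 3 in P0 cKO and 6 in each P7 group. Per kilobase of coding length in P7 control, Htr5a (16.1) stood between Htr1f (19.0) and Htr7 (12.7) and overlapped Htr1f. In P7 cKO, Htr5a (15.8) stood between Htr7 (19.4) and Htr1f (14.7) and again overlapped Htr1f.

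**Figure D1:**
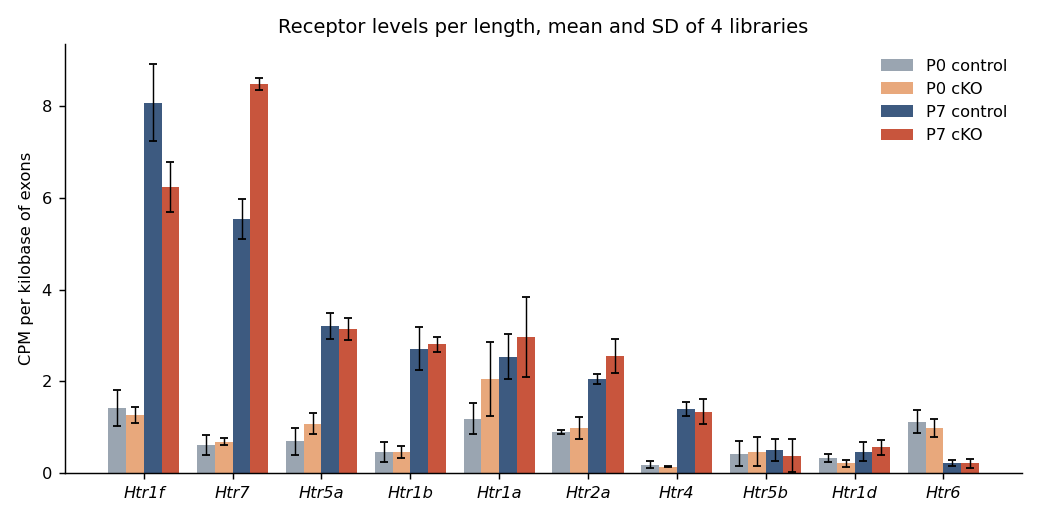
Receptor levels in CPM per kilobase of summed exons, with a bar for the mean and a line for the SD of the 4 libraries of each group. Htr1f is tallest in P7 control cortex (8.08) and Htr7 in P7 cKO cortex (8.48), while all P0 bars are at or below 2.04.

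The comparison of cKO with control cortex at P7 asks which receptors differed in level between the genotypes after a week of life. Htr7 rose 1.53-fold and was the only receptor called. Of the 10 receptors, 8 passed the filter on low values (at least 1 CPM in at least 4 of the 8 libraries), and 1 of these 8 was called, in the higher direction. Among the 12828 genes tested at P7, 477 or 3.72% were called, and 1.67% were called higher. The median log2 fold change was 0.12 over the 8 receptors and 0.03 over all genes tested. Calls are at an adjusted p under 0.05 in limma on log2(CPM + 1), which understates the change of low genes.

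Among the Gs-coupled receptors, Htr7 (chromosome 19, 35958734 to 36057507, minus strand, GRCm38), a receptor with a part in circadian timing and in the growth of neurites, had 16.7, 19.1, 19.8 and 19.9 CPM in P7 control libraries 43, 45, 46 and 47. It had 28.4, 29.4, 29.0 and 28.5 CPM in P7 cKO libraries 41, 42, 44 and 48. Every cKO library thus lay above every control library, and the 4 cKO values were close to each other. The mean went from 18.9 ± 1.5 to 28.8 ± 0.446 CPM (SD, n = 4, exact permutation p = 0.0286). The limma log2 fold change was 0.59 (SE 0.080, 95% interval 0.42 to 0.76, adjusted p = 0.00049). Leaving out any 1 library or changing a setting gave log2 fold changes from 0.54 to 0.62.

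Htr4 (chromosome 18, 62324204 to 62496577, plus strand), a receptor that raises transmitter release and excitability, did not follow Htr7. Its P7 levels were 7.00, 7.72, 6.80 and 5.88 CPM in control and 5.28, 5.71, 8.22 and 7.10 CPM in cKO libraries. The groups overlapped, and its log2 fold change was -0.06 (SE 0.14, 95% interval -0.36 to 0.24, limma adjusted p = 0.899). Htr6 (chromosome 4, 139061108 to 139075570, minus strand), which sits on the primary cilium of neurons, was under the filter at P7 with 3 to 12 reads a library. Its means were 0.493 ± 0.145 CPM in control and 0.487 ± 0.223 CPM in cKO cortex (SD, n = 4, exact permutation p = 0.971).

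Among the Gi/o-coupled receptors, Htr1f (chromosome 16, 64924729 to 65105854, minus strand), the target of the migraine drug lasmiditan, had 23.8, 20.8, 18.8 and 19.9 CPM in control libraries 43, 45, 46 and 47. It had 14.9, 15.0, 16.4 and 17.9 CPM in cKO libraries 41, 42, 44 and 48. All 4 cKO values lay below all 4 control values. The means were 20.8 ± 2.15 and 16.1 ± 1.42 CPM (SD, n = 4, exact permutation p = 0.0286), and the limma log2 fold change was -0.35 (SE 0.097, 95% interval -0.56 to -0.15). Its adjusted p of 0.0628 missed the threshold. The call lies at the border, since Htr1f passed with scaling by medians of ratios (adjusted p = 0.0457), array weights (0.0281), edgeR (0.0414) and DESeq2 (0.0152), and without cKO library 48 (log2 fold change -0.40, adjusted p = 0.0386). Over all 20 alternatives its adjusted p ran from 0.0152 to 0.408. Htr7 and Htr1f were the only receptors whose P7 genotype groups did not overlap, 1 higher and 1 lower, and 8.88% of all genes tested at P7 had groups apart in this way.

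Htr1a (chromosome 13, 105443639 to 105448122, plus strand) encodes the inhibitory receptor that raphe neurons use to restrain themselves and that cortical projection neurons also carry. In the P7 libraries it had 8.33, 12.6, 13.3 and 11.2 CPM in control and 8.67, 12.3, 18.1 and 14.1 CPM in cKO libraries. The groups overlapped, with a log2 fold change of 0.18 (SE 0.18, 95% interval -0.20 to 0.57, limma adjusted p = 0.739). Htr1b (chromosome 9, 81628291 to 81633828, minus strand) encodes a receptor of axon endings that limits transmitter release. Its means were 12.8 ± 2.23 and 13.3 ± 0.769 CPM (SD, n = 4), a log2 fold change of 0.06 (95% interval -0.19 to 0.31, limma adjusted p = 0.883). An antisense gene, D430036J16Rik, covers 852 of its exon bases (18%) and has no row in the table. Where strand was not used, reads from these bases may have been counted for Htr1b or left out, which was not tested.

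Htr1d (chromosome 4, 136423524 to 136444398, plus strand), a close relative of Htr1b that also sits on axon endings, was low, with 0.899 to 2.25 CPM in control and 1.22 to 2.52 CPM in cKO libraries. Its log2 fold change was 0.18 (SE 0.20, limma adjusted p = 0.770). Htr5a (chromosome 5, 27842149 to 27855088, plus strand), a receptor found mainly in brain, overlapped between the genotypes. Its levels were 16.7, 18.6, 18.4 and 15.4 CPM in control and 18.6, 15.7, 16.8 and 16.4 CPM in cKO libraries, a log2 fold change of -0.03 (SE 0.094, 95% interval -0.23 to 0.17, limma adjusted p = 0.935).

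The Gq-coupled receptor Htr2a (chromosome 14, 74640840 to 74709494, plus strand), known as the main target of classical psychedelics and abundant in deep-layer projection neurons, had 12.3, 10.7, 11.4 and 11.5 CPM in control and 16.6, 13.5, 15.5 and 11.8 CPM in cKO libraries at P7. Only cKO library 48 lay within the control range. The means were 11.5 ± 0.655 and 14.3 ± 2.12 CPM (SD, n = 4, exact permutation p = 0.0571), and the log2 fold change of 0.29 (SE 0.11) did not pass (limma adjusted p = 0.232). Htr5b (chromosome 1, 121509842 to 121528465, minus strand) was under the filter, with 0.5 to 1.59 CPM in control and 0.336 to 1.79 CPM in cKO libraries (exact permutation p = 0.571, n = 4).

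**Figure D2:**
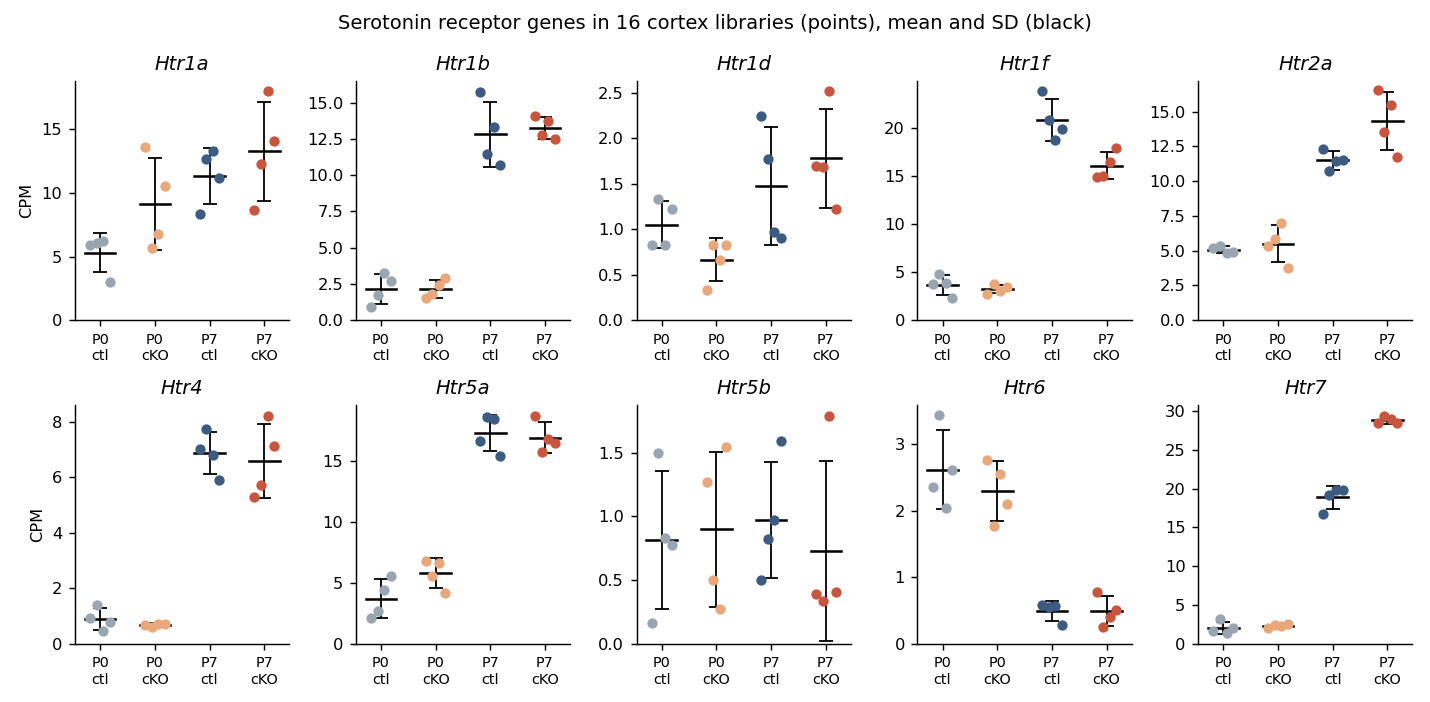
CPM of each receptor in the 16 libraries (points), with the mean and SD of each group of 4 (black). At P7 the 4 cKO points of Htr7 (28.4 to 29.4) lie above all control points (16.7 to 19.9), those of Htr1f lie below, and the other receptors overlap between genotypes.

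Markers of other cells were followed beside Htr7 and Htr1f at P7. The layer 4 list (5 of 5 genes in the table, none at 0 in every library) summed to 506 to 534 CPM in control and 196 to 224 CPM in cKO libraries, and 3 of its 5 genes were called lower. Rorb (240.4 and 77.3 CPM in control and cKO) and Rora (256 and 119 CPM) made up most of the sum, and the low genes Rspo1 (0.442 and 1.13 CPM) and Scnn1a (1.80 and 2.46 CPM) had higher means in cKO cortex. The layer 4 list was the only one of the 14 marker lists whose sums were apart between genotypes at P7, and its part in the receptor values was not tested. The sums for layer 5, interneurons, striatum, thalamus and astrocytes overlapped between the genotypes, though single genes of lists with overlapping sums were called. Layer 5 had 1 of 6 genes called lower, astrocytes 1 of 5 lower, and interneurons 1 of 12 higher. Layer 6 had 1 of 6 called higher and 2 lower, subplate 1 of 6 higher and 1 lower, and upper layers 1 of 6 higher. Over all genes tested at P7, 3.72% were called. The striatal sums were 226 to 532 CPM in control and 271 to 438 CPM in cKO libraries, and the thalamic sums 166 to 179.6 and 178.9 to 237 CPM.

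The same comparison at P0 asks whether the receptors differed already at birth. Of the 10 receptors 7 passed the filter, and limma called none. Over all 12580 genes tested at P0, 32 or 0.254% were called, and 2276 had an unadjusted p under 0.05. Htr1a and Htr5a were the receptors with an unadjusted p under 0.05, at 0.0234 and 0.0274, and no receptor passed with edgeR or DESeq2. The median log2 fold change was 0.08 over the 7 receptors and 0.01 over all genes tested. No receptor had P0 groups that were apart, while 9.86% of the tested genes did.

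In P0 control libraries 1, 2, 5 and 6 Htr1a stood at 5.92, 6.04, 6.24 and 3.01 CPM. In P0 cKO libraries 3, 4, 7 and 8 it stood at 13.6, 5.70, 6.75 and 10.6 CPM. Libraries 3 and 8 were high and control library 6 was low, and the groups overlapped through cKO library 4. The mean went from 5.30 ± 1.54 to 9.15 ± 3.62 CPM (SD, n = 4, exact permutation p = 0.114), with a log2 fold change of 0.66 (SE 0.26, limma adjusted p = 0.222). Htr5a had 2.08, 2.71, 4.42 and 5.57 CPM in control and 6.80, 5.59, 6.59 and 4.15 CPM in cKO libraries. Of its cKO values, 3 lay above every control value, though cKO library 4 exceeded control library 6 only narrowly, and cKO library 8 lay within the control range. The log2 fold change of Htr5a was 0.57 (SE 0.23, limma adjusted p = 0.232, exact permutation p = 0.114, n = 4).

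The other receptors did not pass at birth either, or were too low to be tested. Htr7 had 1.70, 3.16, 1.38 and 2.06 CPM in control and 1.99, 2.44, 2.27 and 2.60 CPM in cKO libraries, a log2 fold change of 0.14 (SE 0.18, 95% interval -0.25 to 0.53, limma adjusted p = 0.693). Htr1f had 2.28 to 4.76 CPM in control and 2.71 to 3.71 CPM in cKO libraries (log2 fold change -0.11, limma adjusted p = 0.762). Htr1b, Htr2a and Htr6 had log2 fold changes of 0.06, 0.08 and -0.13, with limma adjusted p of 0.909, 0.828 and 0.697. Htr1d, Htr4 and Htr5b were under the filter at P0. Htr1d had means of 1.05 ± 0.264 CPM in control and 0.664 ± 0.235 CPM in cKO cortex (SD, n = 4, exact permutation p = 0.171), Htr4 0.885 ± 0.391 and 0.678 ± 0.0529 CPM, and Htr5b 0.817 ± 0.544 and 0.899 ± 0.608 CPM. Beside these values, marker sums for upper layers, microglia and layer 4 were apart between genotypes at P0. Upper layers had 1187 to 1276 CPM in control and 1299.7 to 1369 CPM in cKO libraries. Microglia had 21.8 to 24.68 CPM in control and 24.69 to 31.3 CPM in cKO libraries, so these sums nearly touched. Layer 4 had 106 to 135 CPM in control and 74.0 to 91.9 CPM in cKO libraries. All 6, 4 and 5 genes of these lists were in the table. The microglia sum rests on 3 genes at P0, since P2ry12 was at 0 in all 8 P0 libraries, and 1 microglia gene was apart. In the layer 4 list no single gene was apart at P0, and none of the 4 tested was called. In the upper-layer list Mdga1 (158 and 259 CPM in control and cKO) and Cux2 (197 and 249.7 CPM) were higher on average in cKO cortex and Pou3f2 (354 and 274 CPM) was lower, and 1 of the 6 genes was apart. The part of these markers in the receptor values was not tested.

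**Figure D3:**
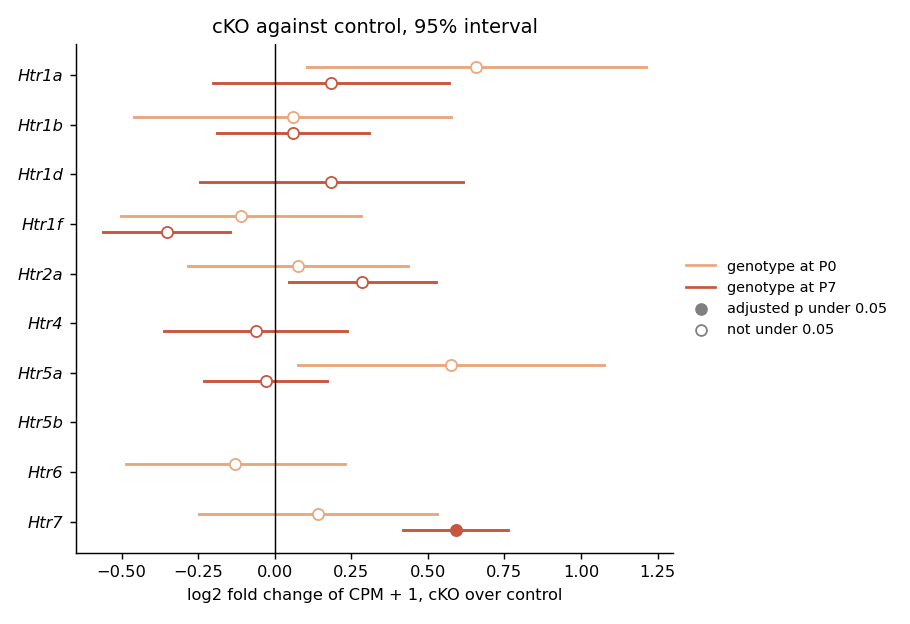
Log2 fold change of CPM + 1, cKO over control, with its 95% interval from limma, for the receptors tested at P0 and at P7. The filled point is Htr7 at P7 (0.59), the only receptor with an adjusted p under 0.05, and receptors under the filter have no point.

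Whether the genotype effect itself differed between the ages was tested as an interaction in 1 fit over the 16 libraries. All 10 receptors entered this fit, none was called, and their median contrast was 0.04. Over all 13444 genes tested 0.751% were called, and the median was 0.02. Htr7 had the contrast 0.45 (P7 effect minus P0 effect, SE 0.20, 95% interval 0.03 to 0.86, limma adjusted p = 0.290), and Htr5a -0.60 (SE 0.26, 95% interval -1.15 to -0.05, limma adjusted p = 0.284). These were the only receptors with an unadjusted p under 0.05 (0.0351 and 0.0328), and no receptor passed with edgeR or DESeq2. Over all 13444 genes tested, 2095 had an unadjusted p under 0.05. The other contrasts ran from -0.47 for Htr1a (SE 0.35) to 0.49 for Htr1d (SE 0.26). So the rise of Htr7 at P7 was not shown to differ from its P0 effect.

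Between birth and P7 the receptor set changed far more than between the genotypes. In control cortex 7 of 10 receptors were called higher at P7 and 1 was called lower. That is set against 82.5% of all 13444 genes called between the ages in control cortex, 35.1% higher and 47.3% lower, so the share of receptors called was near the background. The median log2 fold change was 1.53 over the receptors and -0.19 over all genes tested. Scaling by medians of ratios moved the latter to 0.01, and the receptors' values with it, with no change of direction. Age, platform and the way reads were counted at each age cannot be told apart in all of these values. Of the genes lying wholly under a gene of the opposite strand with shared exons, 93.1% had no read in any P0 library and 28% had none in any P7 library. None of the 10 receptors overlaps another gene of the table, but 2 overlap annotated genes that have no row there. They are Htr1b, with the antisense gene D430036J16Rik over 18% of its exon bases, and Htr5b, with a pseudogene that shares no exon base. Whether this changed their values at either age was not tested.

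Of the Gs-coupled receptors, Htr7 had 1.38 to 3.16 CPM in P0 control and 16.7 to 19.9 CPM in P7 control libraries, 9.09-fold more on average. Its log2 fold change of 2.72 (SE 0.14, limma adjusted p = 2.42e-13) was the largest of the 10. Htr4 lay between 0.442 and 1.38 CPM in P0 control and between 5.88 and 7.72 CPM in P7 control libraries, a log2 fold change of 2.08 (SE 0.15, limma adjusted p = 7.88e-11). Htr6 went the other way, from 2.36, 3.43, 2.04 and 2.62 CPM in P0 control libraries to 0.583, 0.547, 0.567 and 0.277 CPM in P7 control libraries. Its mean was 5.30-fold higher at P0, and the log2 fold change was -1.27 (SE 0.15, limma adjusted p = 1.24e-07). Htr4 reached 1 CPM in 1 of 8 P0 libraries and Htr6 in 0 of 8 P7 libraries, so each passed the filter through the age at which it was high.

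Of the Gi/o-coupled receptors, Htr1f rose 5.72-fold and Htr1b 6.01-fold in control cortex. Htr1f lay between 2.28 and 4.76 CPM at birth and between 18.8 and 23.8 CPM a week later (log2 fold change 2.26, SE 0.15, limma adjusted p = 1.12e-11). Htr1b lay between 0.878 and 3.26 CPM at birth and between 10.7 and 15.7 CPM a week later (log2 fold change 2.19, SE 0.20, limma adjusted p = 2.48e-09). Neither gene had an overlap of P0 and P7 values. Htr5a rose from 3.70 ± 1.59 to 17.3 ± 1.5 CPM (SD, n = 4, log2 fold change 2.02, limma adjusted p = 2.84e-09), and Htr1a from 5.30 ± 1.54 to 11.4 ± 2.20 CPM (log2 fold change 0.99, limma adjusted p = 0.000888). Htr1d, at 1.05 ± 0.264 and 1.47 ± 0.652 CPM, did not pass (log2 fold change 0.24, limma adjusted p = 0.221).

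The Gq-coupled Htr2a rose 2.27-fold in control cortex, from 5.06 ± 0.243 to 11.5 ± 0.655 CPM (SD, n = 4, log2 fold change 1.04, SE 0.14, limma adjusted p = 8.52e-07). Htr5b stayed near 1 CPM at both ages and did not pass (0.817 ± 0.544 and 0.971 ± 0.458 CPM, limma adjusted p = 0.630). With medians of ratios the log2 fold changes were 2.90 for Htr7, 2.45 for Htr1f, 2.37 for Htr1b, 2.23 for Htr4, 2.21 for Htr5a, 1.24 for Htr2a, 1.19 for Htr1a and -1.16 for Htr6.

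In cKO cortex again 7 receptors were called higher and 1 lower at P7, where 81.7% of all genes were called, 35.5% higher and 46.2% lower. The median log2 fold change was 1.33 over the receptors and -0.17 over all genes tested. Htr7 rose 12.4-fold (log2 fold change 3.17), Htr1b 6.15-fold (2.19), Htr4 9.70-fold (2.16), Htr1f 4.97-fold (2.01), Htr5a 2.92-fold (1.42) and Htr2a 2.61-fold (1.25), and Htr6 fell, with a log2 fold change of -1.15. Htr1d was called higher in cKO cortex (log2 fold change 0.73, limma adjusted p = 0.000993), but it reached 1 CPM in 2 of 8 P0 libraries against 6 of 8 at P7, so that it too passed the filter mainly through the age at which it was high. Htr1a was not called there (log2 fold change 0.52, limma adjusted p = 0.0565), though it passed in 10 of 28 alternatives, among them without P0 control library 6 (adjusted p = 0.0364), P0 cKO library 3 (0.0114), P0 cKO library 8 (0.0452) or P7 cKO library 41 (0.0167). That Htr1a passed in one genotype and not in the other does not show a difference, since its interaction did not pass (limma adjusted p = 0.519).

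**Figure D4:**
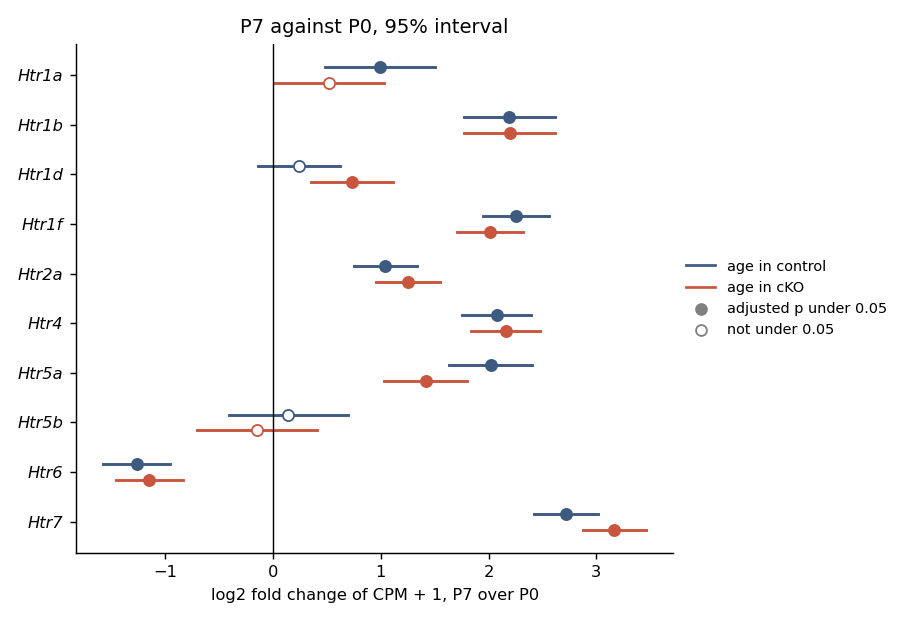
Log2 fold change of CPM + 1, P7 over P0, with its 95% interval from limma, in control and in cKO cortex. Htr7 is farthest to the right in both genotypes (2.72 and 3.17) and Htr6 is the only receptor called to the left (-1.27 and -1.15).

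Summed by coupling, per kilobase of summed exons, the Gs-coupled share of the 10 receptors was higher in P7 cKO than in P7 control cortex. Htr2c, a serotonin receptor gene on chromosome X, had no row in the table and is in none of these sums. The summed level of the 10 receptors per kilobase was 7.30 ± 1.13 in P0 control, 8.28 ± 0.868 in P0 cKO, 26.7 ± 0.717 in P7 control and 28.7 ± 1.82 CPM per kilobase in P7 cKO cortex (SD, n = 4). At P7 the Gs-coupled receptors took 26.8% ± 1.80 of the sum in control and 35.0% ± 1.37 in cKO cortex (SD, n = 4). The libraries did not overlap, at 24.1% to 27.9% and 33.2% to 36.4%. The share of the Gi/o-coupled receptors was 63.6% ± 2.49 in control and 54.8% ± 1.5 in cKO cortex (SD, n = 4). Htr7 alone went from 20.8% to 29.7% of the sum and Htr1f from 30.2% to 21.8%. The other Gs-coupled receptors did not rise, with Htr4 at 5.22% and 4.65% and Htr6 at 0.785% and 0.730% in control and cKO. The Gq-coupled Htr2a held 7.68% and 8.93%, and Htr5b 1.90% and 1.27%. At P0 the Gi/o shares (50.4% to 63.6% in control, 58.5% to 62.2% in cKO) overlapped, as did the Gs shares (18.8% to 30.2% and 20.5% to 24%). These shares follow from the values of the members given above, of which only Htr7 was called at P7, and carry no test of their own. They rest on summed-exon lengths, and shares by coding length were not computed.

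**Figure D5:**
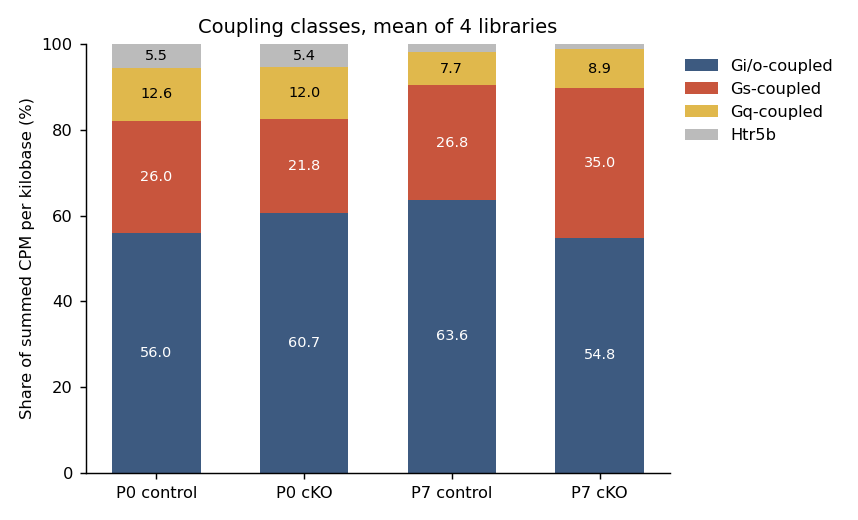
Share of the summed CPM per kilobase of the 10 receptors held by each coupling class, as the mean of the 4 libraries of a group. The Gs-coupled part is 26.8% in P7 control and 35.0% in P7 cKO cortex, and the Gi/o-coupled part 63.6% and 54.8%.

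Promoter sequences of Htr7 and Htr1f are shown because these were the receptors whose P7 genotype groups were apart in opposite directions. Each window runs from 250 bases before to 50 bases after the annotated start, 5′ to 3′ on the gene's strand, from RefSeq on GRCm38.p6. The Htr7 window is chr19:36057311-36057610 and the Htr1f window chr16:65105735-65106034, both on the minus strand. Capitals mark CG pairs.
Htr7: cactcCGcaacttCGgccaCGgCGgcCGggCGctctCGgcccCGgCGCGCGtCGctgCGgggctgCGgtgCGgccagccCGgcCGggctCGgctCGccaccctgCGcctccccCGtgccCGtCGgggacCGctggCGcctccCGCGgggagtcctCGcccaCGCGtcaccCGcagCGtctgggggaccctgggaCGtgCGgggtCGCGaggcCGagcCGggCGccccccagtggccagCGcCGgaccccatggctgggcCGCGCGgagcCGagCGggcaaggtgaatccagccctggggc
Htr1f: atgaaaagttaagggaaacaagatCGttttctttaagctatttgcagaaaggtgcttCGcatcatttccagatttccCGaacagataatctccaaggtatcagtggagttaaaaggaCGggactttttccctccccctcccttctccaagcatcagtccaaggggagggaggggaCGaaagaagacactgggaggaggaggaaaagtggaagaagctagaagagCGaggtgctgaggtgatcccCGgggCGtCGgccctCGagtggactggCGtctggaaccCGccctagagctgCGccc
The Htr7 window held 46 CG pairs at 81.0% G and C, more CG pairs than 98.3% of the 32851 windows in the table. The Htr1f window held 13 CG pairs at 53.0%, nearer to the median window, which had 7 pairs and 52.7%. Windows were found for 8 of the 10 receptors, 10 windows in all. Letters that forkhead factors are known to bind were searched on both strands. The first motif was TGTTTAC, found in 3.65% of all windows. The second was TATTTAT, found in 5.6% of them. The third was TATTTGT, found in 3.63%. None of the 10 receptor windows held any of these, against 11.8% of all windows. No match says only that these letters are not in these windows.

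The genes most like Htr7 were sought over the 16 libraries, on log2(CPM + 1) with the mean of each age taken off. The highest Pearson r were 0.894 for Ppat, the enzyme of the committing step of purine synthesis, 0.854 for Sema3a, a secreted guidance cue for axons, and 0.854 for Nkd1, an inhibitor of Wnt signalling. These are descriptions, since the libraries share depth and genotype and the genes were picked for the likeness. At P7 all 3 were called higher in cKO cortex, as was Htr7, with log2 fold changes of 0.32 for Ppat, 0.51 for Sema3a and 0.46 for Nkd1 (limma adjusted p = 0.00639, 0.000139 and 0.0358). The other receptors ran from -0.35 for Htr1f to 0.39 for Htr2a in the same r.

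Downstream of the receptors, 5 genes of the coupling branches were called at P7, all lower in cKO cortex. The Gi/o, Gs and Gq branches had 12, 18 and 9 genes tested. Over all genes tested at P7, 3.72% were called, and 2.05% were called lower. Of the 12 genes of the Gi/o branch, 2 fell. They were both subunits of GIRK potassium channels, through which Gi/o-coupled receptors dampen neurons. Kcnj3 had 189, 198, 190.5 and 186 CPM in control and 134, 149.6, 159 and 137 CPM in cKO libraries. Its groups were apart, with a log2 fold change of -0.40 (SE 0.057, limma adjusted p = 0.000785). Kcnj9 went from 36.1 ± 0.839 to 25.7 ± 3.21 CPM (SD, n = 4, log2 fold change -0.48, SE 0.085, limma adjusted p = 0.00386). Another GIRK subunit gene of the branch, Kcnj6, named here after its values were seen, did not pass (110 ± 10.2 and 103 ± 4.86 CPM, SD, n = 4, log2 fold change -0.09, limma adjusted p = 0.633), and its groups overlapped. The median of the branch was 0.03, as was that of all genes.

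Of 18 genes of the Gs and cyclic AMP branch, 1 fell, the adenylyl cyclase Adcy2, from 106 ± 11.4 to 80.7 ± 8.58 CPM (SD, n = 4, log2 fold change -0.39, limma adjusted p = 0.0165). Its call was lost without P7 control library 45 (adjusted p = 0.0618) or 46 (0.0737), and with no filter (0.0528). Of 9 genes of the Gq branch 2 fell, among them the protein kinase C gene Prkcb. It went from 1332 ± 24.8 to 1146 ± 26.1 CPM (SD, n = 4, log2 fold change -0.22, limma adjusted p = 0.00522). With quantile normalization Prkcb did not pass (log2 fold change -0.13, limma adjusted p = 0.067). None of the 16 tested receptor partners and regulators (arrestins, receptor kinases and scaffolds) was called by limma at P7. Of these, 2 had an unadjusted p under 0.05, beside 1831 of all 12828 genes tested. At P0 none of these 4 lists had a call in limma, with 11, 18, 9 and 16 genes tested. Of these, 2, 3, 1 and 4 had an unadjusted p under 0.05, beside 2276 of all 12580 genes tested. In 1 fit over all 16 libraries Kcnj3 kept its P7 call, and Kcnj9, Adcy2 and Prkcb did not (limma adjusted p = 0.170, 0.0567 and 0.256).

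Genes for the supply of serotonin were described by the same rule. Maoa and Maob, listed for the breakdown of serotonin and lying on chromosome X, had no row in the table. None of the 8 supply genes tested at P0 or the 6 tested at P7 was called between the genotypes by limma. At each age 3 had an unadjusted p under 0.05. Over all genes tested, 2276 of 12580 at P0 and 1831 of 12828 at P7 had such a p. Slc18a1, a vesicular monoamine transporter gene, was the one called in the interaction (contrast 1.51, SE 0.33, limma adjusted p = 0.0334). It was 1 of 8 supply genes tested there, beside 0.751% of all genes called. It had 2.63, 6.20, 2.10 and 3.62 CPM in P0 control and 0.387, 0.664, 0.443 and 1.71 CPM in P0 cKO libraries, and 0.137 to 0.588 CPM at P7, at or near the level of 3 reads. No P7 library reached 1 CPM, so Slc18a1 passed the filter through P0, mainly in the control libraries, where it was high. It overlaps another gene of the table in part, and the call was lost in 14 of 26 alternatives. Among these were leaving out P0 cKO library 3, 4 or 7, P7 control library 45, 46 or 47, or P7 cKO library 41, 42, 44 or 48 (adjusted p from 0.0520 to 0.0867).

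With age in control cortex, 3 supply genes were called higher and 3 lower, of 8 tested, which is near the background of 82.5% of all genes called between the ages (35.1% higher and 47.3% lower). Tph2, the enzyme that makes serotonin in neurons, went from 0.897 ± 0.333 to 3.16 ± 1.01 CPM (SD, n = 4, log2 fold change 1.12, limma adjusted p = 1.12e-06). Ddc, the next enzyme of the path, went from 1.06 ± 0.216 to 3.22 ± 0.662 CPM (log2 fold change 1.02), and the uptake transporter gene Slc22a3, which overlaps another gene in part, from 2.06 ± 0.702 to 14.0 ± 2.69 CPM (log2 fold change 2.31). The serotonin transporter gene Slc6a4 went from 3.18 ± 0.569 to 1.63 ± 0.413 CPM (log2 fold change -0.67), Slc18a1 from 3.64 ± 1.82 to 0.234 ± 0.177 CPM (log2 fold change -1.84), and the monoamine transporter gene Slc29a4 from 178 ± 13.8 to 36.6 ± 3.48 CPM (log2 fold change -2.25). Slc18a1 reached 1 CPM in no P7 library, so it passed the filter through the age at which it was high. Markers of serotonin neurons were low in these libraries. The 7 of them, all in the table, summed to 12.6 to 16 CPM in P0 control, 11.7 to 14.8 in P0 cKO, 16.2 to 19.5 in P7 control and 12.9 to 17.9 CPM in P7 cKO libraries, and Fev, the factor that defines them, was at 0 in every library.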

How the data were processed

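The authors deposited CPM values, with 20841 genes and 16 libraries. These values are labelled as without X and Y genes. Their tools were HTSeq, STAR and edgeR on GRCm38 or mm10, per the submitters' processing notes, while the sources used here give no versions or strand settings. Of the CPM values, 100% came out as whole multiples of 1 read (tolerance 0.01 read), which gave the library totals. A level of 3 reads lies between 0.165 and 0.167 CPM for P0 libraries and between 0.196 and 0.304 CPM for P7 libraries, a limit for counting error only.

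Genotypes were compared within each age over 8 libraries, and ages and the interaction in 1 fit over 16, with limma 3.58.1 (R 4.3.3) on log2(CPM + 1) with eBayes and a mean-variance trend. A gene entered when 4 or more libraries of the fit had 1 CPM or more, and calls an adjusted p (Benjamini-Hochberg over all genes tested) under 0.05. For single values the exact permutation test (two-sided, 70 assignments of 4 of 8 libraries) was used. The alternatives were DESeq2 1.42.0 and edgeR's quasi-likelihood test (4.0.16) on recovered reads, other scalings, filters and pseudocounts, and leaving out each library.

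The members, pathway lists and marker lists were chosen with earlier results of these data known. Named were all 10 receptors, every listed pathway gene called between genotypes or in the interaction, supply genes called between ages in control cortex, the 3 genes most like a called receptor, and Foxp1. The values of 1 pathway gene that the rule takes in are not reported here. Positions and exon lengths come from GENCODE M21 (GRCm38), with all 10 receptors matched by symbol, and promoters from RefSeq. Htr2b, Htr3a and Htr3b were kept as other receptors, while Htr2c, on chromosome X, had no row.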

Additional observations from a re-analysis of the deposited data

Results flagged for a closer look

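Within each group of 4, a library was marked where its gap to the nearest of the others, as a share of the group's range, passed Dixon's 95% critical value. Chance marks about 1 in 20 groups. Of 40 combinations of receptor and group, 3 were marked. Htr1a was lowest in P0 control library 6, at 3.01 CPM against 5.92 to 6.24 CPM in the other controls. That library also stood apart on the first principal component at P0. Htr5b was highest in P7 cKO library 44, at 1.79 CPM against 0.336 to 0.406 CPM in the other libraries. Htr6 was lowest in P7 control library 47, at 0.277 CPM against 0.547 to 0.583 CPM. Htr6 had 3 to 12 reads in each P7 library.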

How the results depend on the processing

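No paired analysis was possible because no replicate number is shared between groups. The number of receptors called at P7 was 1, and 2 with scaling by medians of ratios, with array weights, at an adjusted p under 0.1, with edgeR and with DESeq2, the added gene being Htr1f each time. Leaving out each library in turn gave 1 to 2. At P0 and in the interaction the count was 0 under every alternative run. Between ages in cKO cortex 8 receptors were called, and 5 with a mean of at least 5 CPM, since Htr1d, Htr4 and Htr6 were then not tested. With coding length, the receptors that kept their rank were 1 of 10 in P0 control, 3 in P0 cKO, and 6 and 6 in the P7 groups. No called value changed direction.

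Over all genes, the 32 calls at P0 became 7 with no filter, 124 with array weights, 429 with DESeq2, 794 in 1 fit over 16 libraries, and 118 without P0 control libraries 2 and 6. Leaving out 1 library moved the P0 count to between 4 (without cKO 3 or cKO 8) and 136 (without control 5), with 9 and 13 without cKO 4 and 7 and 97 without control 1. The 477 calls at P7 became 175 in 1 fit over 16 libraries and 281 to 496 with 1 library left out, the lowest without control 46. The 101 calls of the interaction became 45 (without P0 cKO 3) to 361 (without P0 control 5). The 477 calls at P7 were 214 higher and 263 lower, and with medians of ratios the P7 calls were 155 higher and 305 lower. Depth limits Htr1d, Htr4 and Htr5b at P0 and Htr5b and Htr6 at P7.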

Other observations

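Htr3a, the serotonin-gated ion channel that marks a class of cortical interneurons, moved with age against most of the G protein-coupled receptors. It had 11.1, 10.3, 10.1 and 10.5 CPM in P0 control and 1.08, 1.71, 1.05 and 1.38 CPM in P7 control libraries, a log2 fold change of -2.33 (limma adjusted p = 2.07e-11). At P7 its cKO libraries 41, 42, 44 and 48 had 3.72, 2.60, 1.71 and 2.54 CPM, with a mean of 2.64 ± 0.825 against 1.31 ± 0.306 CPM in control (SD, n = 4, exact permutation p = 0.0286). The limma log2 fold change was 0.64 (SE 0.18, adjusted p = 0.0680), which did not pass, and the summed interneuron markers overlapped between genotypes at P7 (541 to 628 CPM in control, 581 to 645 CPM in cKO). Htr3a was chosen for this account after its values were seen.

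Gnaz, a Gi/o alpha subunit gene that lies wholly under a gene of the opposite strand, was at 0 in all 8 P0 libraries and at 129 ± 13.7 CPM in P7 control libraries (SD, n = 4). Genes that lie so were mostly at 0 in all P0 libraries, at 93.1% of 175 with shared exons and 96.7% of 307 without, and at 28% and 26.4% in every P7 library. Htr2b lies so too and was at 0 in every P0 library.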
